A study of Homo sapiens with 12 samples.

Results

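The SMC1 binding sites of wild-type HAP1 cells were compared with those of HAP1 cells that lack the cohesin loader subunit SCC4. A site was 1 peak interval of the deposited SMC1 peak list of a genotype, and it counted as shared where intervals of both lists overlapped by at least 1 bp. The wild-type list held 18542 sites and the ΔSCC4 list 12779, together 31321 of the 267921 peaks in the 12 peak lists of the series. By this rule 11155 wild-type sites were kept in ΔSCC4 cells and 7387 were lost, which is 39.8% of all wild-type sites (the background for every share of lost sites given here). Of the ΔSCC4 sites, 11150 overlapped a wild-type site and 1629 were new, which is 12.7% of that list. The shares depended on how the lists were matched, since with equal numbers of the strongest sites in each list 26.1% were lost and 26.1% new, and of wild-type sites with a −log10 q of at least 10 set against the whole ΔSCC4 list 15.8% were lost.

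The series profiled SMC1, CTCF and control IgG by ChIP-seq in 4 genotypes of HAP1, an established human line with a near-haploid genome and an origin in chronic myeloid leukemia, with 1 library for each antibody and genotype. The wild-type cells carried no engineered allele. The ΔSCC4 line was made in them with a CRISPR guide against SCC4 (gene symbol MAU2) on a px330 plasmid, together with a puromycin resistance cassette that selects for insertion into the cut site. How many clones made up the line is not given in the sources used here. The ΔWAPL line, made likewise with a blasticidin cassette, and the ΔWAPL/ΔSCC4 line, in which SCC4 was removed from ΔWAPL cells, are used only to describe the sites. With 1 library a side, no difference between wild-type and ΔSCC4 cells has a replicate check, no p-value is given, and all intervals are 95% intervals that cover counting error only.

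Cohesin is a ring of SMC1, SMC3 and RAD21, with a STAG subunit bound to it, that holds DNA within the ring. The SCC2/SCC4 complex (NIPBL and MAU2) helps to load the ring onto DNA, and WAPL helps to release it. In mammalian cells most stable cohesin sites coincide with CTCF, a zinc finger protein whose asymmetric motif gives each site a direction, and the loops held by cohesin mostly join CTCF motifs that point at each other.

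The guide and the CTCF-bound sites that lead each class are shown with their sequences, because the cut site defines the mutant and because the strand of the CTCF motif enters several of the comparisons. All coordinates are on hg19 (GRCh37), and all sequences were read from that reference, 5′ to 3′. The SCC4 guide matched the minus strand in a coding exon of MAU2, 211 bp downstream of the annotated gene start, and its PAM is in capitals.
SCC4 guide target, chr19:19431849-19431868 with the PAM beside it, minus strand: gtacgggcctcgatgcgctgCGG
The nearest SMC1 summit lay 21887 bp from the guide in the wild-type list and 21852 bp from it in the ΔSCC4 list, so these lists hold no reads at the cut and do not test the deletion.

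A 19 bp matrix for the CTCF motif was built from 1000 wild-type CTCF peaks of odd-numbered chromosomes. Capitals in its consensus mark positions with at least 1 bit of information.
CTCF motif consensus: tggCCaccAGggGGCgctg
The next 6 sequences are the strongest lost sites at CTCF peaks, each on the strand of its motif, with the 19 bp match in capitals and 20 bp of flanking sequence on either side. They are printed so that the elements of lost sites can be set beside those of kept sites.
KANSL1 intron, chr17:44270879-44270937, plus strand: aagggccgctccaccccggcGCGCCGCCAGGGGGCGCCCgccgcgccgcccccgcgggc
SPSB2 coding exon, chr12:6981677-6981735, minus strand: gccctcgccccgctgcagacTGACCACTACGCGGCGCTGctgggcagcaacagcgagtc
CD99L2 intron, chrX:149940787-149940845, plus strand: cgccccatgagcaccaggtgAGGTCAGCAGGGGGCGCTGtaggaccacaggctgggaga
TCF20 intron, chr22:42565108-42565166, plus strand: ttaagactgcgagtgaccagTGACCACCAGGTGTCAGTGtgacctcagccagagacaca
RHNO1 and TULP3 exon, chr12:2994573-2994631, plus strand: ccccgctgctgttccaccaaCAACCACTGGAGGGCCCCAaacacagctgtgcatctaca
STARD3NL exon, chr7:38255472-38255530, plus strand: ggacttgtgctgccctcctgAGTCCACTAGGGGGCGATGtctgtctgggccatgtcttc
The 4 strongest kept sites are shown in the same way.
Noncoding RNA intron, nearest coding start SKOR1, chr15:68155896-68155954, plus strand: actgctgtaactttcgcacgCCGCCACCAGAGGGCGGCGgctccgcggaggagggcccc
THSD4 and CT62 exon, chr15:71407690-71407748, plus strand: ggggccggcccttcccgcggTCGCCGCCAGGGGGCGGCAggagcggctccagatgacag
FSIP2 intron, chr2:186603724-186603782, minus strand: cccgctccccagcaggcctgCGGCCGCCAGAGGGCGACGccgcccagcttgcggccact
Upstream of PTPRE, chr10:129705241-129705299, plus strand: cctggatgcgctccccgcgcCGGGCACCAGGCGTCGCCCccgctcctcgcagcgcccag
The 5 strongest new sites at CTCF peaks complete the set.
Between genes, nearest coding start FAT4, chr4:127145116-127145174, plus strand: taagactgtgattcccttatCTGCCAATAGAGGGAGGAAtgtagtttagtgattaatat
Upstream of RYR2, chr1:237205311-237205369, plus strand: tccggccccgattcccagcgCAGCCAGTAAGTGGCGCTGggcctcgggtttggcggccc
GHRHR intron, chr7:31023362-31023420, plus strand: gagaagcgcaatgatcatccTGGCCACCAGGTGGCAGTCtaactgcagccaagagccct
Between genes, nearest coding start FAM83B, chr6:54582815-54582873, plus strand: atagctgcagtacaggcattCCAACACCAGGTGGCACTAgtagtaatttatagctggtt
Near TPD52L1, chr6:125435563-125435621, minus strand: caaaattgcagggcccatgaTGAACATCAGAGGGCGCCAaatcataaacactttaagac
Of the 19 motif positions, 10 to 16 equalled the consensus in the lost sites, 13 or 14 in the kept sites and 10 to 15 in the new sites, so the best matches of the classes overlapped in quality. The strongest lost site without a CTCF peak in any genotype is shown as the window of 50 bp on either side of its summit, where the capital marks the summit base and no motif match was found.
Between genes, nearest coding start TBL1XR1, chr3:177077731-177077831: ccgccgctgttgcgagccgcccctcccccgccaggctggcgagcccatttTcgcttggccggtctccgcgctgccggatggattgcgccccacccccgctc

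Lost sites were the weaker sites of the wild-type list, although the lost class reached far up the range. The measure used for a single site is the pileup, the number of reads that cover the summit, which was recovered from the deposited fold enrichment and p-value. Lost sites had a median of 16 reads, kept sites 24 and new sites 15 in their own lists. Their median fold enrichment over local background was 5.34, 7.16 and 4.92, and their median widths were 248, 319 and 235 bp. The average depth was 8.13 reads per kb in the wild-type library and 8.41 in the ΔSCC4 library, so the ΔSCC4 library was not the shallower one.

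**Figure D1:**
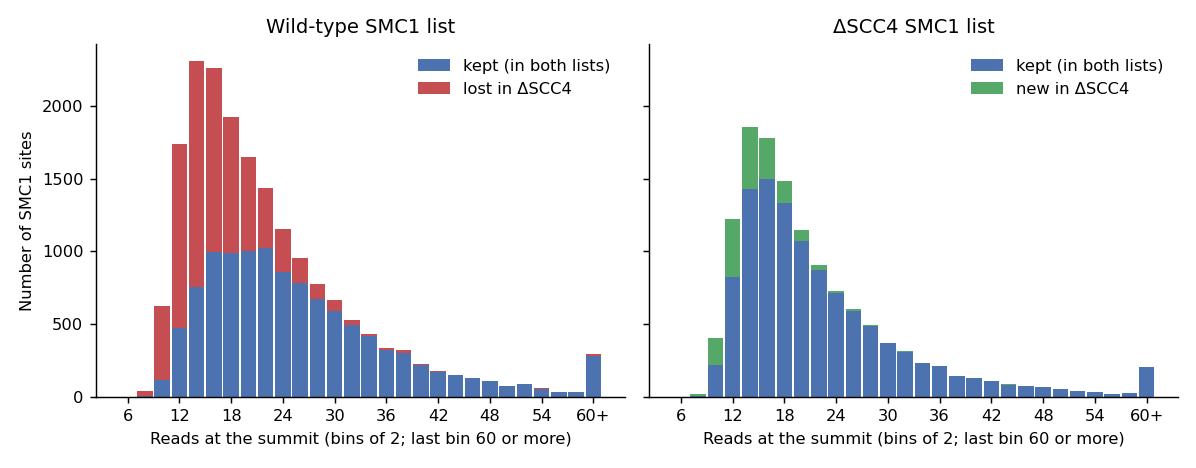
Number of SMC1 sites (vertical axis) by the number of reads at the summit (horizontal axis, bins of 2 reads, last bin 60 or more), for the wild-type list on the left and the ΔSCC4 list on the right. Lost sites (red) and new sites (green) fill the low end of their lists, with medians of 16 and 15 reads against 24 for kept sites in wild-type cells.

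The wild-type list was split by −log10 q into 10 strength bins of equal size. The share lost was 79.1% in the weakest bin (95% Wilson interval 77.2 to 80.9), 46.3% in bin 5 and 1.19% in the strongest (22 of 1854 sites, 0.785 to 1.79). Every bin lost a smaller share than the bin beneath it. New sites followed the same order in the ΔSCC4 list, from 36.8% of the weakest bin to 0.156% of the strongest (2 of 1279 sites). The weakest peaks of the lists had a −log10 q of 1.45 in wild-type and 1.52 in ΔSCC4 cells, and values beneath the call are not in the lists. Because the loss depended this much on strength, each share of lost sites is given beside the share that the strength bins of the same sites would give alone.

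**Figure D2:**
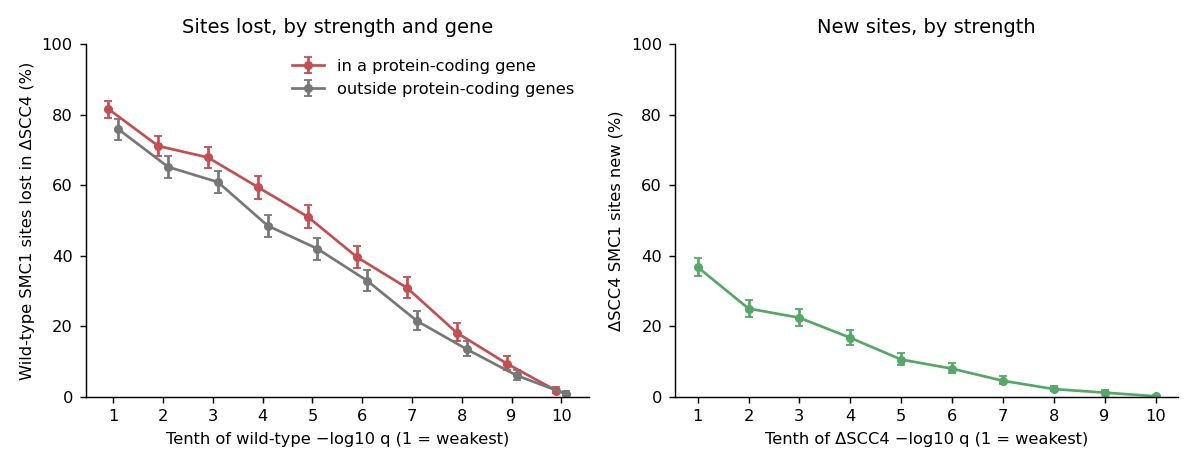
Left, percent of wild-type SMC1 sites lost in ΔSCC4 (vertical axis) by strength bin of wild-type −log10 q (horizontal axis, 1 is the weakest of 10), for sites inside (red) and outside (grey) protein-coding genes, and right, percent of ΔSCC4 sites that were new by strength bin of ΔSCC4 −log10 q, with 95% Wilson intervals as bars. Loss fell from 79.1% to 1.19% from the weakest to the strongest bin, and the line for genes lay above the other line in 10 of 10 bins.

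A lost call does not say how far the signal fell, so a bound was computed on the pileup that a lost site could have kept without a call. It used the weakest p-value called in ΔSCC4 cells and the wild-type background of the site scaled to depth. The ΔSCC4 background at lost sites is not in the lists and was taken to be the same. A call would have taken a median of 10 reads, against the median of 16 reads in wild-type cells. In units of each library's average pileup this is a median ratio of at most 0.606. Under that background the bound was a fall past 1.5-fold for 4900 lost sites (66.3%), and it was less than 0.5 of the wild-type value for 1678 (22.7%). The bound reached 1 or more at 4 lost sites. That count was nearly fixed in advance and does not measure a fall. The weakest −log10 p called was 4.09 in wild-type and 4.35 in ΔSCC4 cells at similar depth, so almost any called wild-type site has a bound under 1. The wild-type count in each bound has counting error and belongs to a site that was called, so a smaller true fall is possible.

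Kept sites were also weaker in ΔSCC4 cells. Their summit pileup over the library average had a median ratio of 0.817 (95% interval of the median 0.813 to 0.825), and it was below 1 at 75.9% of them. Past 1.5-fold, 2729 of 11152 kept sites with a pileup in both lists fell and 212 rose, which are the background shares of 24.5% and 1.90% for any kept site. The deposited fold enrichment, which divides by local background, had a median ratio of 0.883. As recovered, that background looks like a read count of the same library over 10 kb, so it can include the reads of the site itself. The lists were scaled to their own depth and no spike-in was named, so a change shared by the whole genome cannot be told apart from a difference in depth.

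The ratio at kept sites was under 1 at each level of strength when both libraries set the level. Across 5 equal bins of the mean pileup of both libraries, the median ratio was 0.880, 0.794, 0.779, 0.795 and 0.838 from weakest to strongest. Split by the wild-type value alone it ran from 1.16 in the weakest bin to 0.735 in the strongest, but a weak wild-type site counts as kept only where ΔSCC4 cells still had a call, which removes low ratios from the weak bins. Under the mean of both pileups the need for a call in both libraries narrows the ratios of the weakest bin, so no order is read from either split. By CTCF pileup the median ratio ran from 0.857 in the bin with the least CTCF to 0.778 in the bin with the most, of 5. The need for a call in ΔSCC4 cells acts on this split too. Of all wild-type sites in 5 such bins, 61.8% were lost with the least CTCF and 19.7% with the most. No order is therefore read from the CTCF split. CTCF itself had a lower pileup in the ΔSCC4 library at the same places, with a median ratio of 0.768 (0.765 to 0.773) at 6304 lost sites, 0.822 (0.818 to 0.825) at 10606 kept sites and 0.840 (0.829 to 0.853) at 1238 new sites that had a CTCF peak in both genotypes. The part of this CTCF difference in the SMC1 result was not tested.

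The strongest lost site of all lay in an intron of KANSL1, which encodes a subunit of a histone acetyltransferase complex, 124 bp from a start site of that gene (chr17:44270733-44271246). It had 59 SMC1 reads in wild-type cells and no peak in ΔSCC4 cells, 94 reads in ΔWAPL cells and 48 in ΔWAPL/ΔSCC4 cells. By the computation above a call would have taken 14 reads, which put the bound at 0.224 of the wild-type value, the lowest of any lost site. CTCF fold enrichment at the site was 21.3 in wild-type and 22.3 in ΔSCC4 cells.

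A coding exon of SPSB2, which encodes a substrate adaptor of a ubiquitin ligase, held 55 SMC1 reads in wild-type cells (chr12:6981589-6981928). No peak was called there in ΔSCC4 cells, and the double mutant had 30 reads against 116 in ΔWAPL cells. The bound on its ratio was 0.308, while CTCF fold enrichment was 15.9 in wild-type and 16.7 in ΔSCC4 cells.

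The other 4 of the 6 strongest lost sites at CTCF had 38 to 43 SMC1 reads in wild-type cells and bounds of 0.273 to 0.285. They lay in introns of CD99L2 and of TCF20, a transcriptional coregulator, and in exons of RHNO1, which overlaps TULP3, and STARD3NL. TCF20 had 43 wild-type reads, 58 reads without WAPL and 28 reads without WAPL and SCC4, and its CTCF fold enrichment was 24.7 in wild-type and 16.8 in ΔSCC4 cells. STARD3NL had 38, 60 and 39 reads in the same order, with CTCF folds of 21.2 and 20.2. All 6 sites had an SMC1 peak in both WAPL-deficient genotypes.

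Among lost sites within 1 kb of the start of a coding gene, KANSL1 and SPSB2 were followed by ENTREP3. It had 37 reads in wild-type, 59 in ΔWAPL and 31 in double-mutant cells. No SMC1 peak was called there in ΔSCC4 cells, although a CTCF peak remained, with a fold of 23.5.

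**Figure D3:**
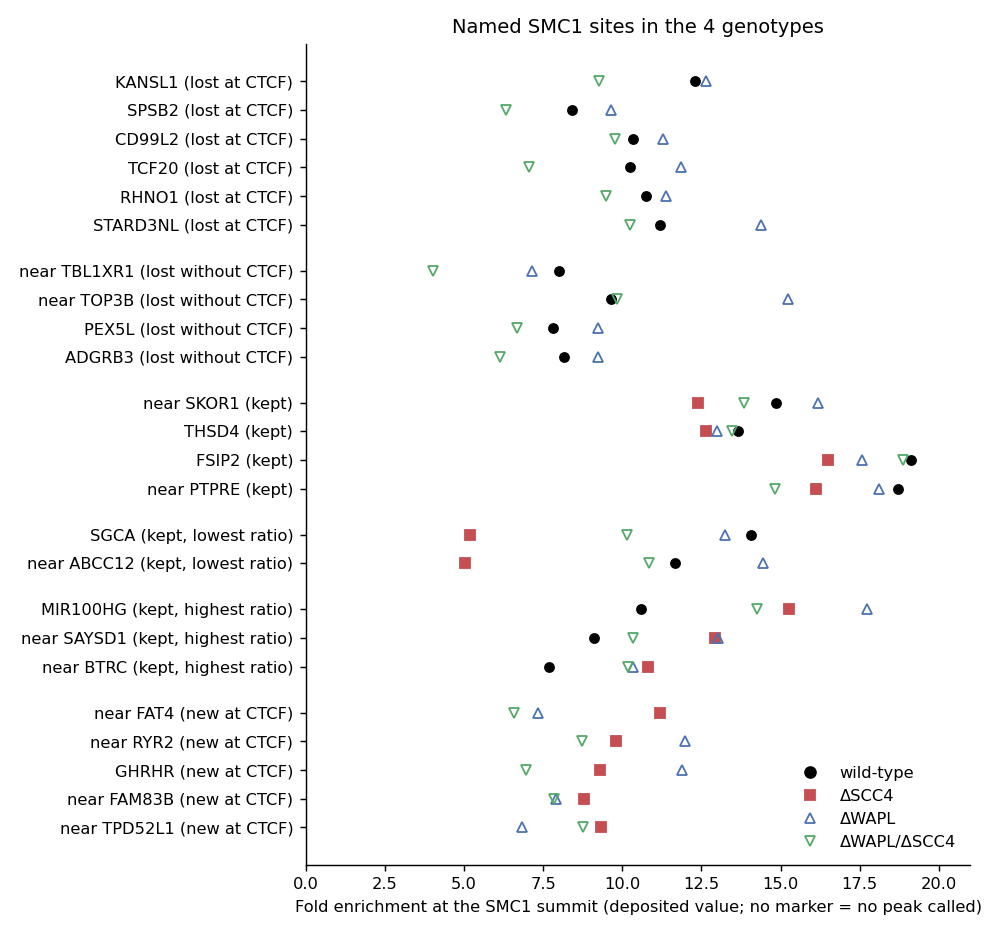
Deposited SMC1 fold enrichment at the summit (horizontal axis) of the named sites in the 4 genotypes, with 1 marker for each library that had a peak there. Lost sites have no ΔSCC4 marker by definition, and the 6 lost sites at CTCF all carry markers of both WAPL-deficient genotypes.

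The 4 strongest kept sites all had a lower pileup in ΔSCC4 cells, with ratios of 0.707 to 0.880, none of them past 1.5-fold. Both sites on chromosome 15 lay in a stretch of raised background, where the windows of 10 Mb from 60 to 90 Mb had a wild-type background of 2.62 to 3.20 times the library average against a median of 1.45 over all windows. The part of this background in the rank of these sites was not tested. The first lay in an intron of a long noncoding RNA gene 38081 bp from SKOR1 (chr15:68155650-68156333) and had 132 reads in wild-type and 99 in ΔSCC4 cells, with 223 in ΔWAPL and 144 in double-mutant cells. The site shared by THSD4 and CT62 had 129 and 114 reads, that in FSIP2 105 and 91, and that upstream of PTPRE, a receptor-type tyrosine phosphatase, 91 and 85 (wild-type and ΔSCC4 in each case).

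Of the kept sites with at least 30 wild-type reads, the steepest fall was at SGCA, which encodes alpha-sarcoglycan. SMC1 had 60 reads in wild-type, 16 in ΔSCC4, 63 in ΔWAPL and 38 in double-mutant cells there, and the ratio of the first pair was 0.251. A site 909 bp from the start of ABCC12, an ABC transporter, had 48, 14, 120 and 47 reads in the same order (ratio 0.275). At both sites the ΔSCC4 library was the lowest of the 4, with CTCF folds of 16.2 and 22.2 still called in ΔSCC4 cells. The largest rises were at MIR100HG, the host of a microRNA cluster, with 38 reads in wild-type and 69 in ΔSCC4 cells (ratio 1.71), and at sites between genes nearest to SAYSD1 (30 and 51 reads, 1.602) and BTRC (32 and 54 reads, 1.59). These 5 were at the extremes of the ratio, chosen for it, and are described without a test.

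Sites inside protein-coding genes were lost more often than sites outside them. Of the 9059 wild-type sites in protein-coding genes 4050 were lost (44.7%, 43.7 to 45.7), against 3337 of 9483 elsewhere (35.2%, 34.2 to 36.2). The difference was 9.52 percentage points (Newcombe interval 8.11 to 10.9), where strength alone gave 41.5% and 38.3%. Within strength bins it was 6.39 points on average and positive in 10 of 10 bins, between 0.965 and 10.95 points. It was positive on 22 of 23 chromosomes, with the exception of chromosome 21 (−3.92 points), and reached 16.5 points on chromosome 16.

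The difference between genes and the rest was present where single other features were held alike. At CTCF peaks, 42.0% of sites in genes and 33.4% of other sites were lost (39.5% and 37.1% from strength). More than 20 kb from any start site the shares were 42.0% and 34.1% (41.4% and 39.5% from strength). In 5 equal bins of gene density around the site the difference ran from 7.61 to 11.6 points, without regard to strength. By the length of the gene, 45.5% were lost in genes up to 50 kb, 44.7% in genes of 50 to 200 kb and 44.1% in longer ones. Strength alone gave 41.0%, 40.7% and 42.7%, so the longest genes stood nearest to their strength value. Kept sites followed the same order, with a median pileup ratio of 0.794 in protein-coding genes and 0.838 elsewhere, beside local background ratios of 0.918 and 0.935. The background can include the reads of the site, so pileup and background ratios are not independent.

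The same shares were computed for other pairs of lists. From ΔWAPL to ΔWAPL/ΔSCC4 cells, which share no library with the pair above, 37.9% of SMC1 sites in protein-coding genes and 24.0% elsewhere were not found again, a difference of 13.8 points (12.9 to 14.8) and of 7.46 within strength bins. For CTCF peaks from wild-type to ΔSCC4 cells the shares were 17.5% and 15.7%, and the difference of 1.80 points (1.09 to 2.50) shrank to 0.169 within bins of CTCF strength.

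By gene part, the share lost was highest in 5′ UTRs (55.02% of 607 sites) and lowest outside annotated genes of any kind (34.9% of 7143). Strength alone gave 53.4% for 5′ UTRs, so these sites were weak ones, and 37.8% for sites outside genes. Coding exons lost 46.7% (45.2% from strength), introns 42.4% (40.5%), 3′ UTRs 42.7% (37.3%) and exons of noncoding genes or transcripts 38.5% (38.8%). The 3′ UTR share lay farthest above its strength value, with an interval of 38.3 to 47.3. As shares of each class, 33.7% of lost, 41.7% of kept and 37.6% of new sites lay outside genes, and the difference between lost and kept sites was −7.98 points (−9.39 to −6.56), or −6.47 within strength bins.

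Along the length of protein-coding genes, the share lost was 49.1% in the part nearest the start, 44.02%, 43.4% and 43.6% in the middle parts and 41.5% in the part nearest the end, of 5 equal parts. Strength alone gave 47.1%, 41.8%, 39.6%, 39.03% and 37.9%, so the share lost lay above its strength value in every part. In the first and second parts the interval of the share (47.0 to 51.3 and 41.4 to 46.7) included the strength value. Among sites in a single protein-coding gene, 41.9% were lost where the CTCF motif lay on the coding strand of the gene. Where it lay on the other strand 38.2% were lost, a difference of 3.65 points (1.18 to 6.13). Strength alone gave 37.7% and 35.4%. The difference was 5.04 points in genes up to 50 kb (0.336 to 9.71), 4.91 points in genes of 50 to 200 kb (0.937 to 8.87) and 0.96 points in longer genes (−3.31 to 5.24). In the same order, strength alone gave 37.5% and 35.1%, 38.0% and 34.0%, and 37.7% and 37.2%. Much of the difference in genes up to 200 kb thus lay in strength. With sites in overlapping genes included (the longest gene taken), the motif lay on the coding strand at 49.8% of lost and 46.1% of kept sites. This was a difference of 3.69 points (1.20 to 6.18) and of 1.68 points within strength bins, positive in 7 of 10.

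Lost sites lay closer to transcription start sites than kept sites, with a difference that depended on the distance used. Lost sites lay a median of 5096 bp and kept sites 6175 bp from the nearest start. Within 1 kb of a start were 26.8% of lost, 23.4% of kept and 31.6% of new sites, so lost exceeded kept sites by 3.45 points (2.17 to 4.73) but by 0.39 points within strength bins. The difference within 1 kb changed sign, to −1.41 points, with equal numbers of the strongest sites in each list. Within 5 kb of a start lost exceeded kept sites by 4.06 points (2.59 to 5.53) and by 3.64 points within strength bins, positive in 9 of 10. The share lost fell with distance from 43.2% within 1 kb to 35.4% beyond 100 kb, while strength alone gave 42.9% and 41.6%. The gap to the strength value was 2.53 points at 1 to 5 kb and −6.17 points beyond 100 kb (407 sites).

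CTCF separated lost and kept sites beyond strength. Of the 1019 wild-type SMC1 sites with no wild-type CTCF peak 804 were lost (78.9%, 76.3 to 81.3), where strength alone gave 67.1%. This held near start sites (555 of 712 lost, 77.9%, 67.7% from strength) and far from them (249 of 307, 81.1%, 65.7% from strength). At CTCF peaks 36.8% of sites near starts and 37.8% of distal sites were lost. With rising wild-type CTCF pileup the share lost was 61.8%, 46.3%, 34.8%, 27.3% and 19.7% in 5 equal bins, and strength alone gave 55.3%, 45.1%, 37.8%, 31.6% and 23.5%. Most lost sites kept CTCF, since 96.2% of the lost and 99.5% of the kept sites at a wild-type CTCF peak also had a ΔSCC4 CTCF peak.

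**Figure D4:**
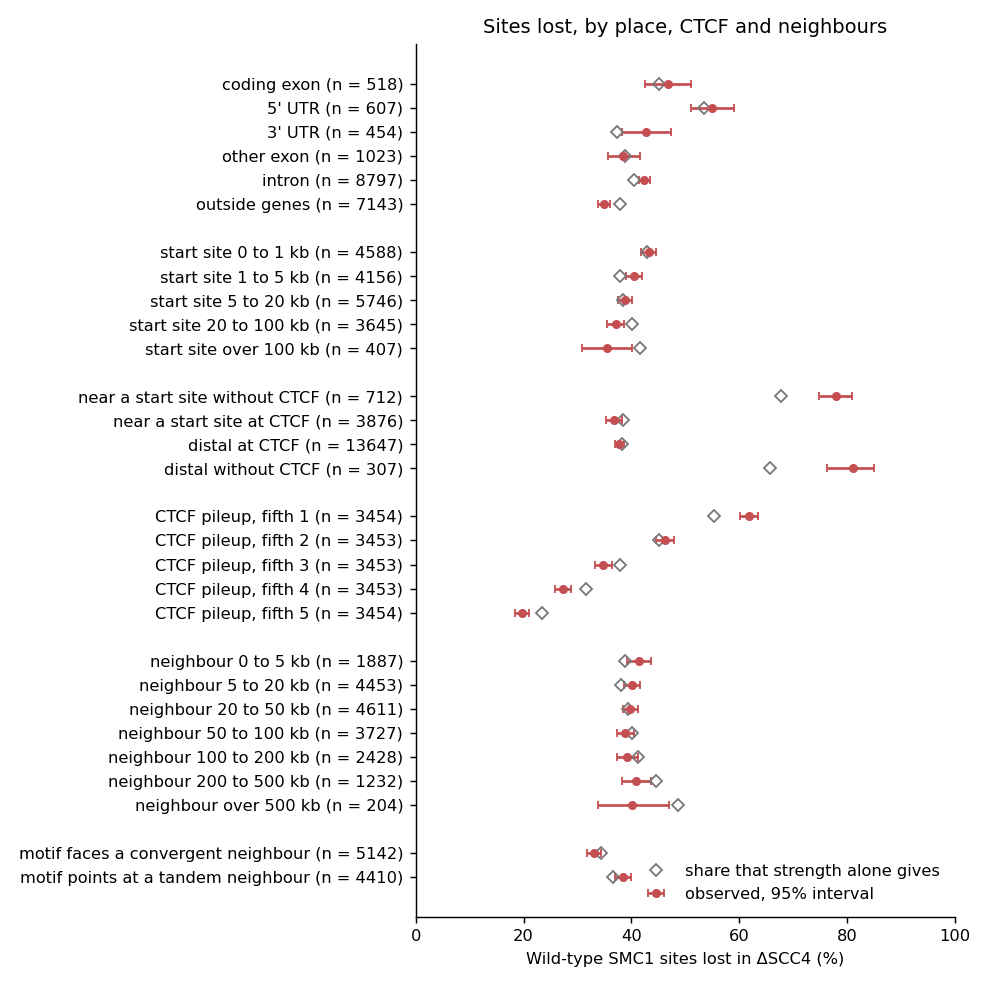
Percent of wild-type SMC1 sites lost in ΔSCC4 (horizontal axis) by gene part, distance to a start site, CTCF, nearest neighbour and motif direction, with 95% Wilson intervals (red) and the share that the strength of the same sites would give (open diamonds). Sites without CTCF stand farthest to the right of their diamonds, and sites outside genes, far from starts or with much CTCF stand to the left.

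The strongest lost site without CTCF lay between genes on chromosome 3, 131993 bp from TBL1XR1, a subunit of a corepressor complex. It had 39 SMC1 reads in wild-type, none called in ΔSCC4, 43 in ΔWAPL and 15 in double-mutant cells. The next 3 lay at gene starts. The site 21 bp from the start of TOP3B, a topoisomerase, had 29 reads in wild-type, 91 in ΔWAPL and 41 in double-mutant cells. PEX5L had 22, 39 and 22 reads in the same order and ADGRB3, an adhesion receptor, 20, 24 and 15. All 4 thus had a peak in every genotype except ΔSCC4, with bounds on their ratio of 0.325 to 0.428.

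A CTCF motif match lay within 50 bp of the summit at 63.1% of lost, 75.4% of kept and 54.8% of new sites on the even-numbered chromosomes, which were not used to learn the motif. Windows 1000 bp away held a match in 5.59%, 5.49% and 3.599%. The difference between lost and kept sites of −12.3 points became 0.18 points within strength bins, and was −0.68 points among sites with a −log10 q of at least 10 in both lists. Motif scores overlapped widely, with medians of 14.6 bits at lost, 16.3 at kept and 14.1 at new sites, and the share lost was 49.9% in the lowest and 25.4% in the highest of 5 equal bins of score over all sites (50.9% and 27.7% from strength).

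The strand of the motif on the chromosome did not separate the classes. It was the plus strand in 51.1% of lost and 49.9% of kept sites with a match, a difference of 1.26 points (−0.52 to 3.05). Relative to the nearest coding start 1 to 50 kb away, the motif pointed towards the start at 49.3% of lost and 48.2% of kept sites, a difference of 1.08 points (−1.20 to 3.35). At kept sites the SMC1 summit lay a median of 1 bp from the motif centre in wild-type and −0.5 bp in ΔSCC4 cells (positive is downstream), while the CTCF summit lay at −10 bp. The SMC1 summit moved by a median of 31 bp in either direction between the libraries.

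The orientation of neighbouring motifs was described for pairs of adjacent sites that both had a match. Convergent pairs, whose motifs point at each other, made up 26.8% of 9578 wild-type pairs and 27.3% of 6467 ΔSCC4 pairs, a difference of 0.45 points (−0.95 to 1.86). Convergent pairs were the more widely spaced ones in both lists, and their median spacing was 101.1 kb in wild-type and 133 kb in ΔSCC4 cells. Divergent pairs went from 59.9 to 97.4 kb and tandem pairs from 68.7 to 122 kb.

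Sites of convergent wild-type pairs were kept together more often. Both sites were kept in 46.1% of 2571 convergent pairs (44.1 to 48.0), 40.8% of 2597 divergent pairs (38.9 to 42.7) and 40.8% of 4410 tandem pairs (39.4 to 42.3). Strength alone gave 43.6%, 42.3% and 41.3%. Counted by site, 33.0% were lost where the motif faced a convergent neighbour and 38.5% where it pointed at a tandem one, against 34.3% and 36.5% from strength. By distance, the convergent share of wild-type pairs was 14.5% under 10 kb and 34.4% at 200 to 500 kb. In ΔSCC4 cells it was 11.4% under 10 kb, reached 31.6% at 50 to 100 kb, and was 30.7% at 200 to 500 kb and 25.7% beyond 500 kb, where the wild-type share was 32.0% (28.1 to 36.2 against 22.4 to 29.2). Neighbours in the shorter ΔSCC4 list can lie on either side of lost sites, so the lists do not hold the same pairs. The part of this re-pairing in the difference was not tested.

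The median distance between neighbouring sites rose from 78.0 kb (76.1 to 80.0) to 120 kb (117 to 124). Gaps over 1 Mb numbered 302 in wild-type and 420 in ΔSCC4 cells, and pairs of neighbours within 5 kb numbered 974 and 433. With equal numbers of the strongest sites in both lists, the ratio of the median distances was 1.10 in place of 1.54. Between consecutive kept sites, 61.4% of intervals had held no lost site, 22.5% had held 1 and 2.86% had held 4 or more, and the median length of the last was 597 kb. The share lost was 41.4% for sites with a neighbour within 5 kb and 40.2% (33.7 to 47.05) for sites with none within 500 kb. The isolated sites were weaker and strength alone gave 38.7% and 48.7%, so that the gap to strength went from 2.67 points for close neighbours to −8.53 points for isolated sites.

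The 7370 lost sites on chromosomes 1 to 22 and X formed 4288 runs of neighbouring lost sites, of which 2503 (58.4% of the runs, but 2503 of the 7370 sites) were 1 site long and 24 had 7 or more sites. A site was lost in 41.8% of cases where the next site was lost and in 38.5% where it was kept, against 40.6% and 39.4% from strength. The longest runs had 10 sites. One crossed OXNAD1, RFTN1, DAZL, PLCL2 and TBC1D5 (chr3:16331913-17454844) with 10 to 22 wild-type reads a site, and the other crossed TNS1, RUFY4, CXCR2, CXCR1 and ARPC2 (chr2:218578189-219122599) with 13 to 28 reads. In each, all 10 sites had a CTCF peak in ΔSCC4 cells and 9 had an SMC1 peak in each WAPL-deficient genotype. The next run, of 9 sites, spanned 1236 kb with 52 protein-coding genes (chr19:54534537-55770856), among them the LILR and KIR families of immune receptors, whose near-identical copies can take each other's reads. Of its sites, 9 had an SMC1 peak in ΔWAPL and 5 in double-mutant cells.

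Among chromosomes 1 to 22 and X, the share lost was highest on chromosome 19 (46.1%, 42.5 to 49.8) and lowest on chromosome 18 (35.1%, 30.6 to 40.0). Strength alone gave 39.6% for chromosome 19 and 40.0% for chromosome 18. Chromosomes 16 and 17 also stood above their strength value (41.9% against 38.0% and 41.3% against 36.5%), and chromosomes 8 and 13 stood under it (36.6% against 41.4% and 35.6% against 40.3%). On the same chromosomes, local background at kept sites had median ratios of 0.892 on chromosome 22 to 0.973 on chromosome 18, and the summit pileup ratios ran from 0.736 to 0.858. Because the background can include the reads of the sites, these ratios are not independent. The part of the background in the order of the chromosomes was not tested.

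**Figure D5:**
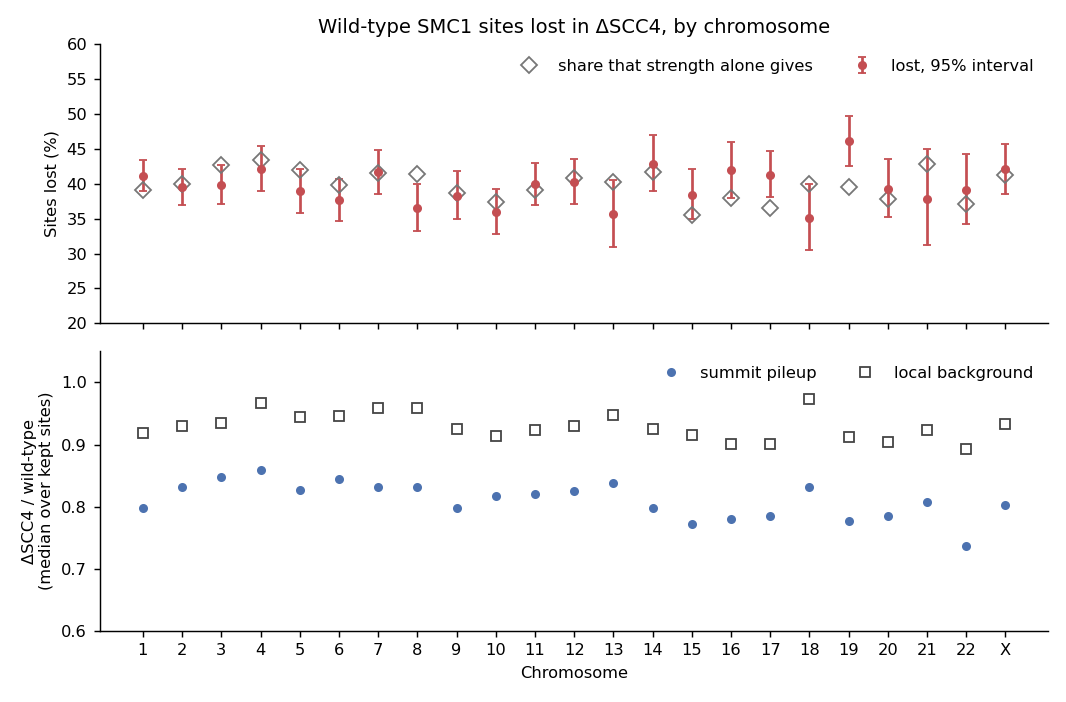
Upper panel, percent of wild-type SMC1 sites lost on each of chromosomes 1 to 22 and X (red, 95% Wilson intervals) beside the share that strength alone gives (open diamonds), on an axis that starts at 20%; lower panel, median ratio of ΔSCC4 to wild-type for the summit pileup (blue) and the local background (squares) at kept sites. Chromosome 19 has the highest share lost (46.1%), and the pileup ratios run from 0.736 to 0.858.

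At finer scale, 268 windows of 10 Mb with at least 30 wild-type sites lost between 17.9% and 61.0% of their sites, with a median of 39.7%. Strength alone gave 39.3% for the lowest window and 43.1% for the highest. More than 50% were lost in 21 windows. The interval of the share lay wholly above the share over all sites in 14 of the 268 windows and wholly under it in 16. In the rest the interval included that share. The part of counting error in the range and in the count of windows over 50% was not tested. With gene density the share lost rose from 39.5% in the poorest of 5 equal bins to 43.3% in the richest, where strength alone gave 42.8% and 38.3%. By GC content the poorest bin lost 43.3% (44.8% from strength) and the richest 38.6% (34.6%).

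New sites were weak and lay in gene-poorer, AT-richer surroundings than kept sites. They had a median of 5 coding genes with a start within 500 kb, against 8 at kept sites, and a GC content of 41.9% over 10 kb, against 44.9%. Among ΔSCC4 sites without a CTCF peak 56.2% were new near start sites (239 of 425) and 69.8% far from them (134 of 192), against 10.2% and 10.4% at CTCF peaks. Sites without CTCF thus had high shares in both directions, here without regard to strength. The nearest wild-type SMC1 summit lay a median of 50.0 kb from a new site, and 60 new sites had one within 1 kb without overlapping it. Of the new sites 1391 (85.4%) had an SMC1 peak in at least 1 WAPL-deficient genotype and 238 had one in neither. By list, 75.2% of new sites had a peak in ΔWAPL and 71.4% in double-mutant cells. These shares were lower than the 95.2% and 94.2% of all ΔSCC4 sites.

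The strongest new site at CTCF lay between genes on chromosome 4, 777865 bp from the nearest coding start, that of FAT4 (chr4:127144987-127145310). It had no peak in wild-type cells, 32 reads in ΔSCC4 cells and 18 in each WAPL-deficient genotype. A site 111 bp from the start of RYR2, a calcium release channel, had 33 reads in ΔSCC4, 68 in ΔWAPL and 40 in double-mutant cells. An intronic site of GHRHR, the receptor for growth hormone-releasing hormone, had 31, 45 and 27 reads in the same order. The other 2, nearest to FAM83B and TPD52L1, had 30 and 28 reads in ΔSCC4 cells. All 5 had a CTCF peak in wild-type cells, with folds of 16.3 to 23.4, although SMC1 was not called there.

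Among new sites without a ΔSCC4 CTCF peak, the strongest lay in a noncoding gene on chromosome 1 (ENSG00000276216, 21 reads) and had an SMC1 peak in no other genotype. The site nearest to TAF12, a subunit of a general transcription factor, had 26 reads in ΔSCC4, 20 in ΔWAPL and 12 in double-mutant cells. A site near the chromosome 7 centromere had 19 reads in ΔSCC4 and 11 in double-mutant cells, with a CTCF peak in ΔWAPL cells (fold 5.48), and lay 766308 bp from any annotated start, in a region where reads of repeated sequence can be misplaced. DCUN1D2 had 21 reads in ΔSCC4 and 17 in ΔWAPL cells.

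Lost sites were occupied in the WAPL-deficient genotypes more often than not. An SMC1 peak was found at 87.0% of them in ΔWAPL and at 78.1% in ΔWAPL/ΔSCC4 cells, against 98.2% and 97.5% of kept sites. At least 1 of these lists held 6794 lost sites (92.0%) and neither held 593. Where a peak was called, the median SMC1 pileup at lost sites over the library average was 10.1 for wild-type, 16.3 for ΔWAPL and 12.97 for double-mutant cells, and at kept sites 15.2, 26.4 and 20.1.

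Single genes lost up to 11 sites. GSE1, which encodes a coiled-coil protein, lost 11 of its 14 wild-type sites, where the strength of these sites gave 5.08. The lost sites had 12 to 31 reads and the 3 kept sites 26 to 67, and all 14 had a CTCF peak in ΔSCC4 cells. CACNA2D3, an auxiliary subunit of calcium channels, lost 8 of 9 sites (4.21 from strength), KAZN 8 of 11 (6.31) and ZBTB20, a zinc finger repressor, 7 of 11 (5.16). The place after these was shared by 4 genes with 6 lost sites each, the calcium channel CACNA1A (of 8), the synaptic scaffold DLG2 (of 10) and the unnamed genes ENSG00000285708 (of 6), which overlaps FOXP1, and ENSG00000282278 (of 10). No gene in this group gained more than 1 new site. These genes were picked for their lost sites and are long, from 427 to 2173 kb.

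The 18 genes of the cohesin pathway on the list used here had 18 wild-type sites in or within 5 kb of 11 of them. Of these 8 were lost (44.4%, 24.6 to 66.3, against 49.2% from strength and 39.8% over all sites), and 3 new sites appeared. Of the ring subunits, SMC3 had a lost site inside the gene with 14 wild-type reads and a kept site downstream of it that had 22 reads in wild-type and 13 in ΔSCC4 cells (ratio 0.557). RAD21 had 1 lost site of 10 reads. STAG1 kept the site at its start, which had 39 reads in wild-type, 20 in ΔSCC4, 110 in ΔWAPL and 59 in double-mutant cells (ratio 0.483), and lost an intronic site of 15 reads. STAG2 kept 2 sites, with 21 and 11 reads (ratio 0.494) and with 18 and 18 reads (0.943) in wild-type and ΔSCC4 cells, and a new site of 17 reads lay 116 bp from its start.

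Among regulators of the ring, PDS5A and PDS5B, which bind it together with WAPL, kept the sites at their starts. PDS5A had 42 reads in wild-type and 28 in ΔSCC4 cells (ratio 0.628) and PDS5B 26 and 19 (ratio 0.689). A second PDS5A site (16 reads) and 2 intronic PDS5B sites (14 reads each) were lost, and 1 new intronic PDS5B site had 16 reads. CDCA5, which encodes the cohesion factor sororin, lost its site of 18 reads, and ESPL1, which encodes separase, lost a site of 17 reads and gained one of 12. ESCO1, a cohesin acetyltransferase, kept a site with 18 reads in wild-type and 15 in ΔSCC4 cells. The site at a start of CTCF itself had 22 and 12 reads (ratio 0.514). MAU2, the gene removed here, kept an intronic site that had 17 reads in wild-type and 23 in ΔSCC4 cells (ratio 1.28) and a downstream site with 17 and 12 reads (0.665). Of the 10 kept sites of these genes, 9 had a ratio under 1, beside 75.9% of all kept sites.

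In the other gene lists, 6 of 20 sites at HOX genes were lost (43.6% expected from strength), 1 of 3 at the clustered protocadherins, 22 of 40 at genes of cytosolic ribosomal proteins (49.2%) and 7 of 11 at replication-dependent histone genes (61.4%). The intervals of these shares were 14.5 to 51.9%, 6.15 to 79.2%, 39.8 to 69.3% and 35.4 to 84.8%, and each reached the share of 39.8% over all sites. New sites numbered 1, 3, 3 and 2 in the same lists.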

How the data were processed

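ChIP-seq of SMC1, CTCF and IgG was analysed in HAP1 cells of 4 genotypes (wild-type, ΔSCC4, ΔWAPL and the double mutant), 12 libraries in all, each with 1 peak list. The authors mapped reads with Bowtie2 to hg19 and called peaks with MACS2 2.1.1 per library. The deposited columns used were the fold enrichment (a ratio), the −log10 p-value, the −log10 q-value and the summit offset. The deposited integer score repeats the q-value and was not used. The calling threshold is not given in the sources used here, and the lists were used as deposited, without matching them to any count of peaks in the study's text. The methods name IgG as control, but in each list the recovered local background was a whole number of reads in 10 kb (tolerance 0.03 reads) at 99.99 to 100% of peaks, as calling without a control would give. A fragment length 3 bp longer gave 4.25 to 6.28%.

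Summits were placed from the interval start and the offset, and lists were compared in Python by an overlap of at least 1 bp. Summits were set against gene parts with bedtools 2.31.1. Summit pileup and background were solved from fold and p-value together, with a single solution at 99.4 to 100% of the peaks of each list, and divided by the average pileup of the library (1.58 in wild-type SMC1, 1.67 in ΔSCC4 SMC1). The depth behind this was 8.13 and 8.41 reads per kb at fragment lengths of 194 and 199 bp. Genes and start sites came from GENCODE v44lift37, in which overlapping transcripts were ranked as coding exon, 5′ UTR, 3′ UTR, other exon and intron. A match to the CTCF motif was the best score within 50 bp of the summit that at most 5% of windows 1000 bp away reach. The motif search took both strands. Shares carry Wilson intervals, their differences Newcombe intervals and medians order-statistic intervals. A share from strength is the share lost in each of 10 equal bins of wild-type −log10 q (strength bins), weighted by the sites described. A value within strength bins is the difference inside each bin, averaged with weights. With 1 library a group no test was made. The pileup recovery, overlap calls, motif search and intervals were first tested on simulated data, and the other steps were not. Python 3.11.15 was used with numpy 2.4.6, pandas 2.3.3, scipy 1.17.1 and pysam 0.24.0, and figures were drawn with matplotlib 3.10.9.

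Sites named were, on chromosomes 1 to 22 and X except 8 and away from IgG peaks, the strongest by −log10 q: 6 lost at CTCF, 4 lost without it, 4 lost within 1 kb of a coding start, 4 kept, 5 new at CTCF and 4 new without it, with the 3 lowest and 3 highest ratios among kept sites of at least 30 wild-type reads. The 5 genes with the most lost sites, the 3 longest runs and all sites of the cohesin genes were also named, and 2 sites that this rule picks are not reported here. Members and lists were chosen with earlier results of these data known. Alternatives covered thresholds, overlap rules, IgG peaks, depth, list length, annotation and motif settings. The IgG lists served only to remove peaks.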

Additional observations from a re-analysis of the deposited data

How the results depend on the processing

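Of 124 alternative values of 11 results, 91 stayed within their interval, 31 moved past it and 2 changed sign. The share lost was 41.7% with both lists at a −log10 q of at least 5, 50.9% at 10, 43.3% at a fold of at least 5, 42.3% after thinning to equal depth together with a −log10 p of at least 8, 26.1% with equal numbers of the strongest sites and 15.8% with only the wild-type list at a −log10 q of at least 10. The new share was 14.3% at 10, 13.5% at a fold of 5, 13.3% with overlap of at least 50%, 26.1% with equal numbers and 1.87% with only the ΔSCC4 list at 10. Lost minus kept sites near a start was 0.63 points at 5, 0.29 at 10, 0.086 at a fold of 5, 1.10 after thinning with that p limit, −1.41 with equal numbers and −0.97 with only the wild-type list at 10. For motif matches the difference was −7.28, −0.68, −7.66, −7.84, −4.93 and −0.98 points in the same order, −14.8 without sites at IgG peaks, −15.2 at the score of 1% of flanking windows and −9.71 within 100 bp of the summit. Sites outside genes differed by −9.92 points with protein-coding genes only. The spacing ratio was 1.89 at 10 and 1.10 with equal numbers. The pileup ratio of kept sites was 0.883 by deposited fold and 0.748 at wild-type sites of at least 10. The difference between genes and the rest was 7.26 points with equal numbers and 5.74 with only the wild-type list at 10. The cause of these moves was not tested. The 100 bp window and every alternative for the difference between genes and the rest were chosen after seeing the data. Motif strand, convergent pairs and the range over chromosomes stayed within their intervals under all alternatives run for them. That range is the highest minus the lowest share, so it cannot change sign.

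No paired analysis was possible because each genotype had 1 SMC1 library, and for the same reason no replicate could be left out. Peaks beneath the call are absent from the lists, so a lost or new site is one not called, and at the weakest strength bin of the wild-type list, with a median of 12 reads a site, counting error alone is large.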

Other observations

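The 238 new sites found in neither WAPL-deficient genotype and the 593 lost sites found in neither are the sites of these lists seen in a single SMC1 library. Among new sites, the share with an SMC1 peak in ΔWAPL cells was 90.2% for sites near a start at CTCF, 79.0% for distal sites at CTCF, 68.2% for sites near a start without CTCF and 29.1% for distal sites without CTCF. In double-mutant cells the shares were 80.4%, 84.5%, 36.0% and 20.1% in the same order. The new sites near starts without CTCF thus had a higher share in ΔWAPL than in double-mutant cells (68.2% against 36.0% of the same 239 sites), which is a description of 1 library each.

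By motif direction within 1 kb of a start, the CTCF motif lay on the strand of the gene at 53.6% of lost and 55.7% of kept sites, a difference of −2.01 points (−6.17 to 2.15). Of sites more than 1 kb from the nearest coding start, 48.97% of lost and 50.1% of kept sites lay upstream of it (−1.09 points, −2.73 to 0.55). Both intervals include 0.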
